A study of Zea mays with 18 samples.

Results

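MADS-box genes encode transcription factors that share a DNA-binding domain, the MADS domain, and act as pairs or larger complexes. In flowering plants the family is best known for setting the time of flowering and the identity of meristems and floral organs. The AP1/FUL-like, SEP-like, SOC1-like and SVP-like subfamilies act around the switch from leaves to an inflorescence. The AGL12-like and AGL17-like subfamilies are mostly studied in roots and vegetative organs, and the type I genes in the embryo sac, endosperm and seed.

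The genes were taken from a deposited expression table of maize (Zea mays) stem by the name of their best protein matches. A gene was a member if that description contained the letters MADS. Zm00001d044899, matched to the maize MADS-box protein m21, was also listed by itself, and 1 of its 4 matches contained these letters. This gave 55 genes of the 34474 in the table, of which 41 were put in a subfamily by match name or symbol. The other 14 were left without a subfamily and are called generic here, although some bear a more specific name. Among these are Zm00001d048697 (MADS-box 15-like), Zm00001d039913 (CAULIFLOWER D-like), Zm00001d045231 (MADS9 and MADS10) and Zm00001d011323 (MADS42). Names were not checked by sequence.

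Stems of 3 hybrids with the common parent Dan 598 were sampled, a low hybrid (Dan 598xFAPW), a middle hybrid (Dan 598xCML444) and a high hybrid (Dan 598xES40). Each was sampled at jointing, when the stem starts to elongate, at big flare, when the leaf whorl is open and the tassel is still enclosed, and at tasseling, when the tassel emerges. The 9 groups had 2 libraries each, and no treatment is named in the labels. Each height class is 1 hybrid, so height and genotype cannot be told apart. Whether both libraries of a group are different plants is not in the labels. The p-values therefore rest on library-to-library spread, which may be technical.

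Expression is given as FPKM, fragments scaled to transcript length and to the mapped fragments of a library. The absolute depth is unknown, and the relative depth, read from the steps between low FPKM values, ran from 0.430 to 1.0 and was higher on average at tasseling (0.865) than at jointing (0.590) and big flare (0.542). Between 20758 and 22708 genes reached 1 FPKM in a library, and log2 values of the 2 libraries of a group correlated across genes at 0.9 to 0.941. Of the 18 libraries 4 were closest to a library of another stage. High jointing 2 (the second high jointing library) was closest to high tasseling 2, high jointing 1 to high big flare 1, and low jointing 2 and low big flare 1 to each other. Counts are also given with both low big flare 1 and high jointing 2 left out, and each of the 4 was left out singly.

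Of the 55 genes, 29 reached 1 FPKM in at least 2 libraries and were tested, and 26 were not. Over the 18 libraries 15 of the 55 averaged 10 FPKM or more. The summed FPKM of all 55 was 428.8 to 565.5 in the 6 jointing libraries (median 447.2), 789.5 to 1172 at big flare (869.8) and 511.1 to 781.3 at tasseling (695.9). The sums at big flare lay above all others. In bulk stem, fewer cells of a type and less RNA per cell cannot be told apart.

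Tests were made with limma on log2(FPKM + 1), over all 26792 genes that passed the same filter, with Benjamini-Hochberg adjustment and a threshold of 0.05. In what follows, ± after an FPKM mean is the SD over 6 libraries and ± after a log2 change is its SE. Log2 changes are means over the 3 hybrids, or over the 3 stages for contrasts between hybrids, and understate the change of low genes.

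From jointing to big flare, 14 of the 29 tested members changed, 13 upwards and 1 downwards, where 12.4% of all tested genes changed (7.29% upwards and 5.06% downwards). The median log2 change was 0.666 over the members and 0.072 over all tested genes. Leaving out 1 library gave 7 to 15 members, with 7 without low big flare 2, 8 without low jointing 2 or high big flare 2, and 9 without middle jointing 2 or high jointing 2. From big flare to tasseling, 14 members changed, 6 upwards and 8 downwards, where 41.6% of all tested genes changed (22.4% upwards and 19.2% downwards). The median was -0.228 over the members and 0.012 over all tested genes. Both steps use the same big flare libraries. Each of the 14 changes in either step had the same sign in all 3 hybrids. The called change is itself the mean over these hybrids, so the signs are no separate result. How often this holds over all called genes was not computed. Under median-of-ratios scaling 10 members rose and 1 fell at big flare, while the share of upward calls over all genes went from 59.0% to 44.4%. Under quantile normalization 4 members rose and 10 fell at tasseling. With relative depth in the model 10 members changed from big flare to tasseling. The calls lost were the rises of Zm00001d013258, Zm00001d027955, Zm00001d034047 and Zm00001d049691.

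Taking both steps together, 7 members rose at big flare and fell at tasseling, 24.1% of the tested members against 5.23% of all tested genes. They were Zm00001d052180, Zm00001d027957, Zm00001d044899, Zm00001d030375, Zm00001d025479, Zm00001d017932 and Zm00001d042315. No member fell at big flare and then rose at tasseling, a course taken by 847 genes, 3.16% of those tested. A further 3 members rose in both steps (0.112% of all tested genes did), 1 fell in both (0.179%), 3 rose only at the first step, 3 rose only at the second, and 12 passed in neither. With both low big flare 1 and high jointing 2 left out, 4 members rose and then fell and 1 rose in both steps. Leaving out 1 library gave 3 to 7 members that rose and then fell, with 3 without low big flare 2 or middle big flare 1 and 4 without low jointing 2, high jointing 2 or either high big flare library.

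**Figure D1:**
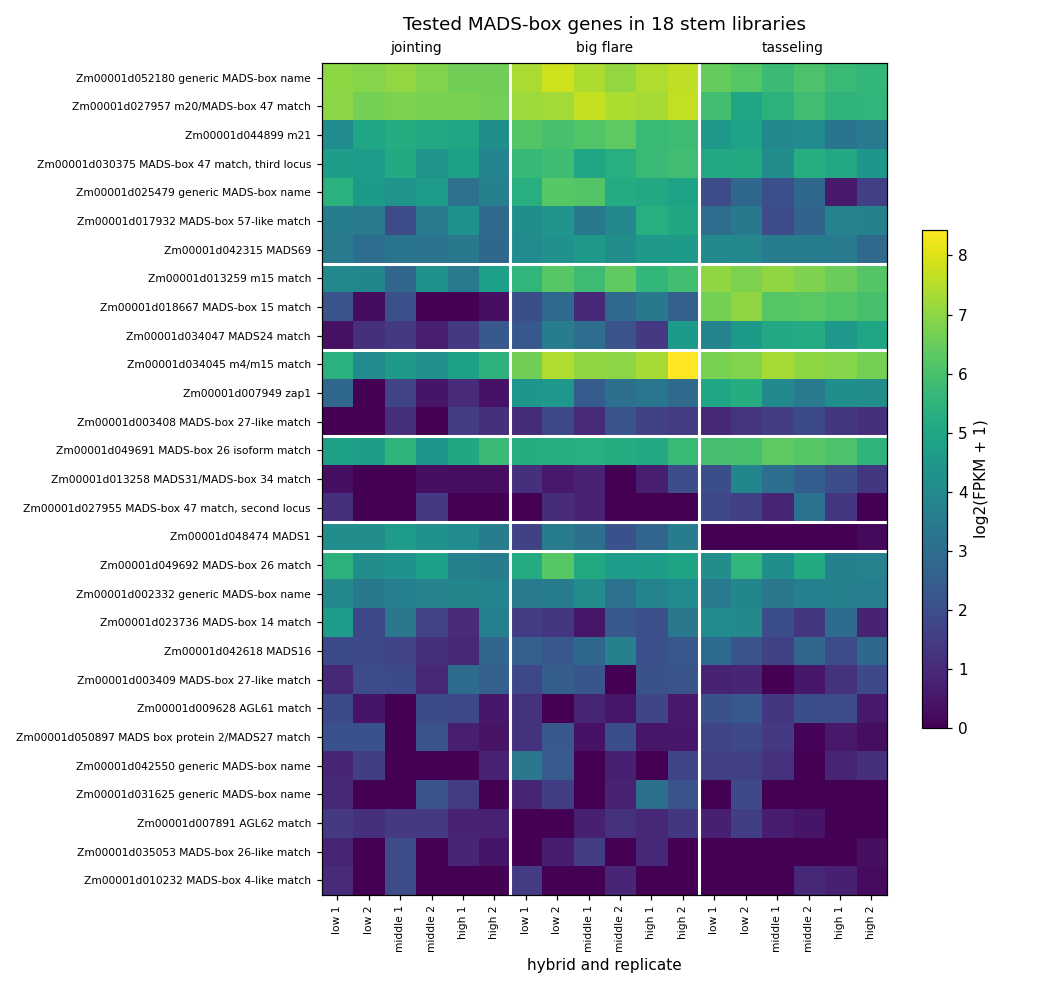
Log2(FPKM + 1) of the 29 tested MADS-box genes (rows, grouped by their course over the stages and separated by white lines) in the 18 stem libraries (columns, 6 per stage). The top block holds the 7 members that rose at big flare and fell at tasseling, and the second block the 3 that rose in both steps.

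SVP-like genes were among those that rose and then fell. SVP of Arabidopsis represses flowering, and the related rice genes MADS22, MADS47 and MADS55 act in brassinosteroid responses and in meristem identity. Of the 4 members, all tested, 3 rose at big flare and fell at tasseling, a course taken by 5.23% of all tested genes.

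Zm00001d027957, matched to m20 and to MADS-box 47, ranged from 99.4 to 123 FPKM at jointing (median 106), from 147 to 206 at big flare (163) and from 30.7 to 58.7 at tasseling (45.1). The 3 stages did not overlap. It rose by a log2 change of 0.66 ± 0.16 (adjusted p = 0.022) and fell by 1.89 ± 0.16 (adjusted p = 1.6e-05). The rise missed the threshold under median-of-ratios scaling (0.53, adjusted p = 0.062) and in 6 of the 18 fits that left out 1 library, those without low jointing 2, low big flare 2, middle jointing 2, middle big flare 1, high jointing 2 or high big flare 2, with log2 changes of 0.60 to 0.72 over all 18 and an adjusted p of up to 0.067. In such fits the remaining library of the group is assumed to vary like the other groups.

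Zm00001d044899 (m21) ranged from 16.1 to 36.7 FPKM at jointing (median 30.4), from 50.02 to 79.37 at big flare (66.3) and from 8.8 to 29.01 at tasseling (14.9). All 6 big flare libraries were above the other 12, and jointing and tasseling overlapped. It rose by 1.26 ± 0.17 on the log2 scale (adjusted p = 0.0016) and fell by 1.98 ± 0.17 (adjusted p = 1.6e-05), and both calls held without any single library. Its level at tasseling was at 25.8 FPKM in the low hybrid, 14.9 in the middle and 9.48 in the high hybrid, after 67.1, 74.6 and 52.2 at big flare. From jointing to tasseling the log2 change was therefore 0.19 in the low hybrid, -1.16 in the middle and -1.20 in the high hybrid. The hybrid-by-stage interaction had an unadjusted p of 0.035 and an adjusted p of 0.93.

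Zm00001d030375, also matched to MADS-box 47, ranged from 12.53 to 35.04 FPKM at jointing (median 24.9), from 30.22 to 56.35 at big flare (50.1) and from 16.6 to 37.65 at tasseling (33.2). It shares a protein match with Zm00001d027957, so reads could be split between them. Stages overlapped, and 5 of the 6 big flare libraries were above all jointing libraries. It rose by 0.96 ± 0.24 (adjusted p = 0.022) and fell by 0.67 ± 0.24 (adjusted p = 0.037). The rise was lost without low big flare 2, middle jointing 2, high jointing 2 or high big flare 2 (log2 changes of 0.79 to 1.13, adjusted p up to 0.068). The fall was lost in 10 of the 18 fits, those without any 1 of the 6 big flare libraries, low tasseling 1 or 2, middle tasseling 1 or high tasseling 2 (changes of -0.86 to -0.48, adjusted p up to 0.11).

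The fourth SVP-like locus, Zm00001d027955, shares its m20 match with Zm00001d027957, and reads could be split between them. It was listed at 0 in 9 libraries, had a median of 0 FPKM at jointing and at big flare and of 1.76 at tasseling, and peaked at 8.19 FPKM in middle tasseling 2. Its rise at tasseling (1.16 ± 0.43, adjusted p = 0.044) was lost under each of the 8 other settings (0.98 to 2.68, adjusted p = 0.051 to 0.24). It was also lost in 10 of the 18 fits without 1 library, those without low big flare 1, low tasseling 1 or 2, middle big flare 2, middle tasseling 2, any jointing or big flare library of the high hybrid or high tasseling 1 (0.78 to 1.54, adjusted p up to 0.12). It was named after its values were seen.

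A pair of generic entries followed the same course, and no role is given for them. Zm00001d052180 ranged from 96.1 to 132 FPKM at jointing (median 117), from 134 to 224 at big flare (169) and from 46.7 to 85.1 at tasseling (60.1). Its 3 stages did not overlap. Its mean at big flare (176 ± 31.1 FPKM) was within the spread of those of Zm00001d027957 (172 ± 25.2) and Zm00001d034045 (171 ± 89.4), the next in order, while m21 followed well below (64.6 ± 11.1). The log2 change was 0.61 ± 0.13 at big flare (adjusted p = 0.012) and -1.49 ± 0.13 at tasseling (adjusted p = 1.6e-05), and both held without any single library.

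Zm00001d025479 ranged from 8.02 to 40.5 FPKM at jointing (median 21.5), from 28.9 to 75.3 at big flare (36.9) and from 0.52 to 6.22 at tasseling (3.01). No tasseling library reached the lowest jointing library. Its fall of 3.50 ± 0.28 (adjusted p = 1.3e-05) followed a rise of 1.18 ± 0.28 (adjusted p = 0.02). The rise was lost without low jointing 2, low big flare 2, middle big flare 1 or high big flare 1 (changes of 1.01 to 1.34, adjusted p up to 0.067).

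MADS69 (Zm00001d042315, also m22), a promoter of flowering in maize, ranged from 6.22 to 10.4 FPKM at jointing (median 8.6), from 15.98 to 23.24 at big flare (20.3) and from 6.51 to 15.3 at tasseling (10.9). Big flare stood above both other stages in every library, and the other stages overlapped. The log2 change was 1.14 ± 0.16 (adjusted p = 0.002) and then -0.78 ± 0.16 (adjusted p = 0.0022), unchanged in call without any single library. The fall was -0.22 in the low hybrid, -0.78 in the middle and -1.35 in the high hybrid, and the interaction did not pass (unadjusted p = 0.15, adjusted p = 1.0).

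The AGL17-like Zm00001d017932 is matched to MADS-box 57-like, and in rice MADS57 takes part in the control of tillering. It ranged from 2.81 to 19.2 FPKM at jointing (median 10.2), from 9.55 to 38.5 at big flare (18.8) and from 2.88 to 12.4 at tasseling (8.43). Stages overlapped across hybrids, but each hybrid had its highest mean at big flare (18.8 in low, 12.1 in middle and 35.4 in high). The rise of 1.10 ± 0.29 (adjusted p = 0.03) was lost under median-of-ratios scaling (0.98, adjusted p = 0.056) and without any one of low jointing 1 or 2, low big flare 2, middle jointing 1, middle big flare 1 or 2, high jointing 2 and high big flare 1 or 2 (0.84 to 1.36, adjusted p up to 0.08). The fall of 1.30 ± 0.29 (adjusted p = 0.0037) held without any single library.

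**Figure D2:**
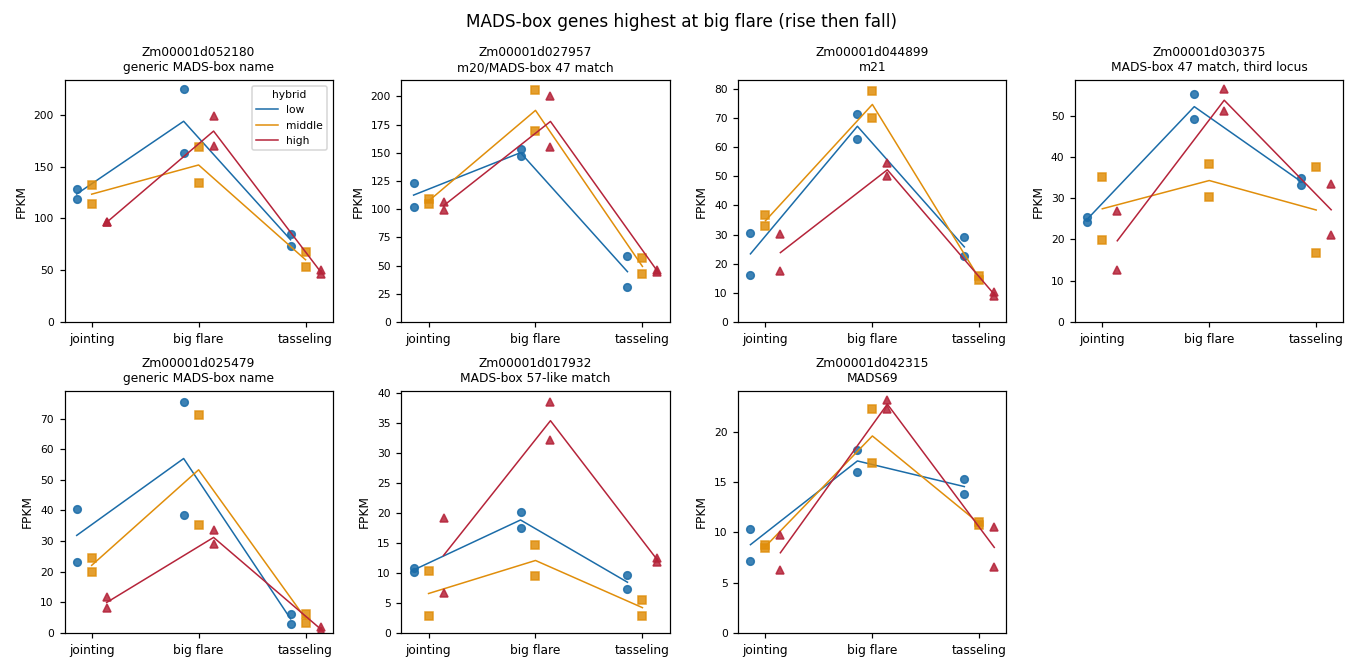
FPKM (vertical axis, from 0) of the 7 members that rose at big flare and fell at tasseling, by stage, with 1 point per library and lines through the mean of the 2 libraries of each hybrid. Zm00001d052180, Zm00001d027957, m21 and MADS69 had every big flare library above every jointing and tasseling library.

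Of 11 KNOX homeobox genes, which mark meristems and young internodes, all were tested, 3 rose and 0 fell at big flare, 0 rose and 6 fell at tasseling, and 2 did both. Of all tested genes 7.29% rose and 5.06% fell at big flare, and 22.4% rose and 19.2% fell at tasseling. The median log2 change of the KNOX genes was 0.21 at big flare and -0.68 at tasseling, beside 0.072 and 0.012 over all tested genes. Their summed FPKM was 356.2 to 432.8 at jointing (median 399.3), 457.4 to 610.8 at big flare (520.4) and 198.4 to 426.7 at tasseling (251.7), and knotted-1 itself was above 0 in all libraries (6.05 to 24.03 FPKM). Secondary wall genes, markers of maturing stem tissue, had their lowest summed median at big flare. Of 31 such genes 25 were tested, 1 rose and 3 fell at big flare, and 14 rose and 2 fell at tasseling, with a median log2 change of -0.87 and then 1.82. Their summed FPKM was 1440.4 to 3755.1 at jointing (median 2378.6), 371.2 to 1849.5 at big flare (1183.0) and 1393.9 to 9198.3 at tasseling (3423.0). Of 62 leaf photosynthesis genes 59 were tested, 0 rose and 4 fell at big flare, and 8 rose and 8 fell at tasseling. From jointing to tasseling 1 was higher and 15 lower, where 18.8% of all tested genes were higher and 11.1% lower. The leaf genes summed to medians of 12169.5, 9487.3 and 10014.1 FPKM over the 3 stages. The part of tissue makeup in the stage courses of the MADS-box genes was not tested.

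The AP1/FUL-like genes act in grasses in the floral transition and in inflorescence meristems. Of the 5 members put in this subfamily, all tested, 4 rose at big flare, 2 of them rose again at tasseling, and none fell in either step. Zm00001d048697 (MADS-box 15-like) and Zm00001d039913 (CAULIFLOWER D-like) may belong here by name but were left without a subfamily. They were not tested and peaked at 0.32 and 1.35 FPKM. Of all tested genes 7.29% rose at big flare and 0.112% rose in both steps.

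Zm00001d034045 is matched to m4 and m15, and m4 promotes the floral transition in maize. It ranged from 15.9 to 42.9 FPKM at jointing (median 24.7), from 97.1 to 346 at big flare (144) and from 102 to 156 at tasseling (115). The rise of 2.54 ± 0.26 on the log2 scale (adjusted p = 0.00047) was a 6.14-fold difference between the stage means, and no jointing library reached the lowest later one. The step to tasseling did not pass (-0.39 ± 0.26, adjusted p = 0.25), its value was 0.00 with relative depth in the model, and the high big flare mean of 251 FPKM rests on 156 and 346 in its 2 libraries. The locus also has matches to proteins with no MADS name, so its FPKM may join neighbouring transcripts.

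Zm00001d013259, matched to m15, ranged from 5.82 to 25.9 FPKM at jointing (median 14.5), from 46.3 to 81.5 at big flare (56.3) and from 71.2 to 129 at tasseling (111). Jointing lay below all other libraries, and 5 of the 6 tasseling libraries were above all big flare libraries. It rose by 2.04 ± 0.28 (adjusted p = 0.0016) and again by 0.82 ± 0.28 (adjusted p = 0.034). The second rise was lost under quantile normalization (0.70, adjusted p = 0.08) and without low big flare 1, either low tasseling, middle big flare 1, either middle tasseling, high big flare 1 or high tasseling 1 (0.70 to 0.93, adjusted p up to 0.092). It shares its m15 match with Zm00001d034045, so fragments of the pair may have been split. Like that locus, Zm00001d013259 has matches to proteins with no MADS name, so its FPKM may also join neighbouring transcripts.

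Zm00001d018667, matched to MADS-box 15, was listed at 0 in middle jointing 2 and high jointing 1 and reached at most 3.65 FPKM at jointing (median 0.245). It ranged from 0.91 to 9.59 FPKM at big flare (5.64) and from 61.8 to 130 at tasseling (74.3). Tasseling stood apart from all earlier libraries, in a step of 3.94 ± 0.44 (adjusted p = 4.9e-05). The earlier rise of 1.63 ± 0.44 (adjusted p = 0.031) was lost when only the 12 libraries compared were used (adjusted p = 0.09). It was also lost without low jointing 2, low big flare 2, middle jointing 2 or middle big flare 2. The same held without any 1 of the jointing and big flare libraries of the high hybrid (log2 changes of 1.29 to 1.97).

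zap1 (Zm00001d007949), the maize homolog of APETALA1, ranged from 0 to 5.98 FPKM at jointing (median 0.685), from 4.51 to 21.6 at big flare (8.26) and from 10.1 to 36.2 at tasseling (17.3). At big flare 5 of the 6 libraries were above all jointing libraries. It rose by 2.39 ± 0.40 (adjusted p = 0.0038), and the step to tasseling did not pass (0.89 ± 0.40, adjusted p = 0.09). That step passed when only the 12 libraries compared were used (adjusted p = 0.0032) and without low jointing 1 or low jointing 2 (adjusted p from 0.01), fits in which zap1 was among the members that rose in both steps. The low hybrid had the higher levels at big flare (20.41 and 21.57 in its 2 libraries, against means of 6.04 in middle and 7.74 in high) and tasseling (33.5 against 12.5 and 17.3), yet neither hybrid contrast passed (high against low -0.99 ± 0.40, adjusted p = 0.16, and middle against low -1.12 ± 0.40, adjusted p = 0.13). Zm00001d018667 and zap1 share protein matches, so fragments of this pair may also have been split.

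The fifth, Zm00001d023736 (MADS-box 14 match), spread widely within groups, from 2.58 to 24.4 FPKM in low jointing alone. It passed in neither step (-0.86 ± 0.62, adjusted p = 0.39, and 0.70 ± 0.62, adjusted p = 0.40).

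SEP-like genes encode partners that join other MADS-box proteins into complexes in inflorescences and flowers. Of the 6 members 2 were tested, and both rose at tasseling, as did 22.4% of all tested genes. Zm00001d034047, matched to MADS24, ranged from 0.31 to 4.12 FPKM at jointing (median 1.48), from 1.66 to 23.5 at big flare (5.71) and from 12.8 to 35.4 at tasseling (26.9). Every tasseling library was above every jointing library, and the 2 high big flare libraries differed widely (1.66 and 23.5). It rose by 1.83 ± 0.47 at tasseling (adjusted p = 0.0078, and 0.15 with relative depth in the model). Its rise at big flare (1.61 ± 0.47, adjusted p = 0.044) passed in only 3 of the 18 fits without 1 library, those without low big flare 1, middle big flare 2 or high big flare 1, with changes of 1.07 to 2.14 and an adjusted p of up to 0.12 over all 18.

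Zm00001d013258, matched to MADS31 and MADS-box 34 and named after its values were seen, was at most 0.27 FPKM at jointing, 0 to 2.98 at big flare (median 0.71) and 1.56 to 13.6 at tasseling (3.91). The rise at tasseling was 1.59 ± 0.34 (adjusted p = 0.0025, and 0.10 with relative depth in the model), after a step of 0.67 ± 0.34 that did not pass (adjusted p = 0.21). Rice MADS34 helps to shape the inflorescence. In RefSeq's annotation (Zm-B73-REFERENCE-NAM-5.0), m4 and m24 lie on chromosome 1 with 1 protein-coding gene between them, and m15 and m31 are adjacent on chromosome 5. Each pair thus joins an AP1/FUL-like and a SEP-like gene, and in both pairs the deposited locus matched to the SEP-like gene had the lower mean FPKM at every stage. The FPKM of both AP1/FUL-like loci, Zm00001d034045 and Zm00001d013259, may join neighbouring transcripts, which limits this comparison.

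MADS1 (Zm00001d048474), the SOC1-like member and a promoter of flowering in maize, was the only one of the 29 to fall in both steps. It ranged from 10.64 to 24.02 FPKM at jointing (median 16.5) and from 2.1 to 10.97 at big flare (6.67), and it was listed at 0 in 5 of the 6 tasseling libraries and at 0.13 in high tasseling 2. At big flare 4 of the 6 libraries were below all jointing libraries, and tasseling did not overlap with either. The log2 change was -1.35 ± 0.31 (adjusted p = 0.016) and then -2.76 ± 0.31 (adjusted p = 5e-05), and both held without any single library. Against a group at 0 the fitted change depends on the pseudocount. MADS1 was named after its values were seen.

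**Figure D3:**
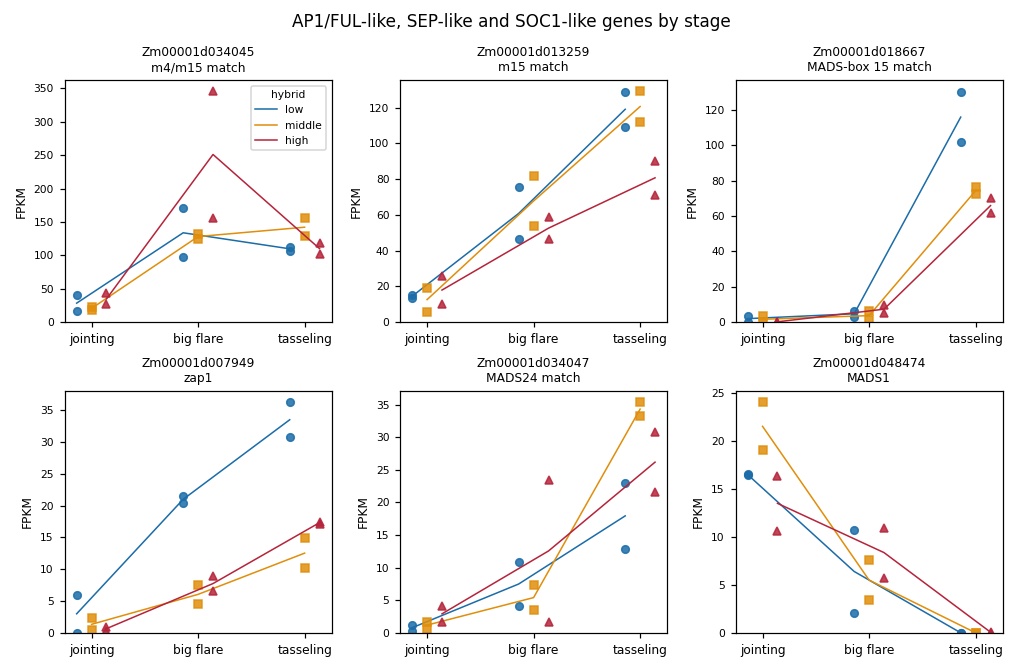
FPKM (vertical axis, from 0) by stage of 4 AP1/FUL-like genes, the SEP-like MADS24 match and the SOC1-like MADS1, with 1 point per library and lines through the mean of the 2 libraries of each hybrid. MADS1 ended at 0 to 0.13 FPKM at tasseling, where the MADS-box 15 match Zm00001d018667 reached 61.8 to 130 FPKM.

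Markers of floral tissue differed in level. LEAFY acts with AP1 in floral meristems. The only gene found by name as a maize homolog, zea floricaula/leafy 1, was listed at 0 in 16 of 18 libraries and reached 0.86 FPKM at most. Male sterile26 and male sterility protein 2, which act in the tapetum and pollen wall, reached 0.34 and 1.71 FPKM, while male sterile45 was present throughout at 6.4 to 33.2 FPKM. Of 48 anther and pollen genes 35 were tested, 0 changed at big flare, and 11 rose and 4 fell at tasseling. Of all tested genes 22.4% rose and 19.2% fell at tasseling. The summed FPKM of the anther and pollen genes was 457.7 to 690.1 at jointing (median 629.0). It was 347.3 to 638.9 at big flare (485.7) and 554.0 to 736.1 at tasseling (600.4). The part of floral tissue in the rises at tasseling was not tested.

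Between the AGL12-like genes, named for matches to MADS-box 26, which acts in stress responses in rice, the stage courses differed. Zm00001d049691 ranged from 20.8 to 52.9 FPKM at jointing (median 29.7), from 33.2 to 50.5 at big flare (37.1) and from 44.3 to 81.1 at tasseling (64.4), and 5 of 6 tasseling libraries were above all big flare libraries. It rose at tasseling (0.72 ± 0.20, adjusted p = 0.012), with an adjusted p of 0.058 when relative depth was in the model. Zm00001d049692 had its highest mean at big flare (37.1 ± 19.1 FPKM, against 21.1 ± 11.4 and 23.2 ± 13.8), and neither step passed (0.81 ± 0.30, adjusted p = 0.092, and -0.71 ± 0.30, adjusted p = 0.071). The second step passed under quantile normalization (-0.77, adjusted p = 0.049) and without high jointing 2 and low big flare 1 (-0.89, adjusted p = 0.044), and also without low big flare 1, low tasseling 2 or middle tasseling 2 alone (adjusted p from 0.023). The first step passed without low jointing 1 or low big flare 1 (adjusted p from 0.048). Both loci share a RefSeq gene match, and Zm00001d049691 is also matched to a protein with no MADS name, so their values are uncertain. The third, Zm00001d035053, stayed at or below 2.92 FPKM and passed in neither step.

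Among the other AGL17-like genes, Zm00001d003408, a match to MADS-box 27-like named after its values were seen, went from 0.713 ± 0.815 to 2.0 ± 0.931 FPKM at big flare. MADS27 of rice responds to nitrate. The change of 0.89 ± 0.27 had an adjusted p of 0.046, which was lost in 15 of 18 fits without 1 library, all but those without low big flare 1, middle jointing 1 or middle big flare 1 (changes of 0.70 to 1.09, adjusted p up to 0.13). Zm00001d003409 shares its match and passed in neither step.

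Zm00001d002332, a generic entry also matched to a peroxisomal reductase, stayed between 7.88 and 16.7 FPKM in all 18 libraries. Its log2 changes were -0.02 and -0.10, with no call. The B-class MADS16 (Zm00001d042618, sterile tassel silky ear1), which specifies stamens, was above 0 in every library, at 0.93 to 11.8 FPKM, and passed in neither step (0.89 ± 0.34, adjusted p = 0.10, and -0.23 ± 0.34, adjusted p = 0.63).

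**Figure D4:**
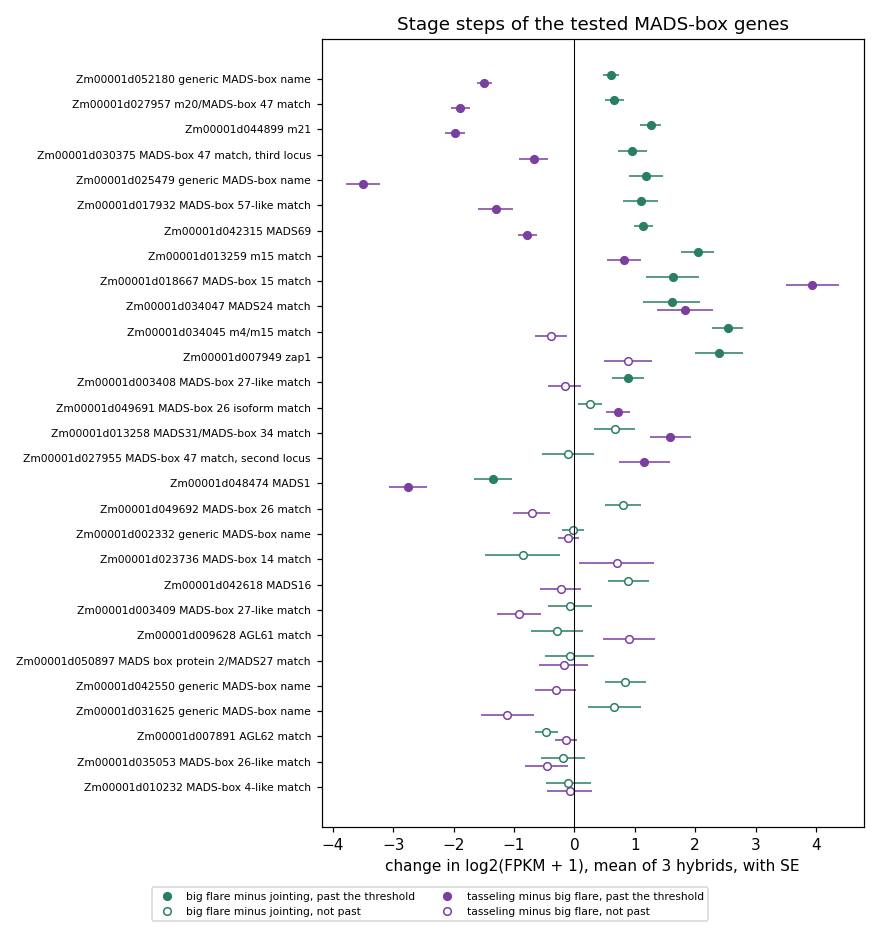
Log2(FPKM + 1) change of each tested member from jointing to big flare (green) and from big flare to tasseling (purple), as the mean of the 3 hybrids with SE bars, filled where the adjusted p was below 0.05. The changes ran from -3.50 (Zm00001d025479 at tasseling) to 3.94 (Zm00001d018667 at tasseling).

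From jointing to tasseling directly, 13 members changed, 7 upwards and 6 downwards, where 29.9% of all tested genes changed (18.8% upwards and 11.1% downwards, a split of upward calls of 63.0% that went to 52.5% under quantile normalization). All genes named for this contrast were named after their values were seen. Those higher at tasseling were 4 AP1/FUL-like genes, both tested SEP-like genes and Zm00001d049691, by 0.97 ± 0.20 (Zm00001d049691, adjusted p = 0.0036) to 5.57 ± 0.44 (Zm00001d018667, adjusted p = 3.4e-05). Those lower were MADS1 (-4.12 ± 0.31, adjusted p = 3.1e-05), Zm00001d025479 (-2.33 ± 0.28), Zm00001d027957 (-1.22 ± 0.16), Zm00001d052180 (-0.88 ± 0.13), m21 (-0.72 ± 0.17) and the type I AGL62 match Zm00001d007891 (-0.60 ± 0.19, adjusted p = 0.028). Type I AGL62 acts in the endosperm of Arabidopsis. Zm00001d007891 averaged 1.3 ± 0.445 FPKM at jointing and 0.603 ± 0.719 at tasseling. It was listed at 0 in 4 libraries and peaked at 1.95 FPKM. With relative depth in the model its change did not pass (-0.75, adjusted p = 0.074). The call of Zm00001d007891 was lost without low jointing 1, low tasseling 1, middle jointing 2, middle tasseling 2, high jointing 1 or high tasseling 1 (-0.74 to -0.46, adjusted p up to 0.076). At jointing the highest means were those of Zm00001d052180 and Zm00001d027957 (114 ± 15.5 and 108 ± 8.49 FPKM), and at tasseling those of Zm00001d034045 and Zm00001d013259 (121 ± 19.6 and 107 ± 22.6). Within each of these pairs the libraries overlapped.

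Differences between hybrids were fewer. High against low, 3 members were lower in the high hybrid and 0 higher, where 9.21% of all tested genes differed (3.58% higher and 5.63% lower). Zm00001d025479 was at 14.1 ± 13.9 FPKM in the 6 high libraries and 31.1 ± 26.7 in the 6 low ones, a spread that includes the stages. It was lower in the high hybrid at each stage, at 9.9 against 31.8 FPKM at jointing, 31.2 against 56.9 at big flare and 1.26 against 4.54 at tasseling. The log2 difference was -1.21 ± 0.28 (adjusted p = 0.017), lost without low jointing 1, low big flare 2, low tasseling 2 or high jointing 1 (-1.38 to -1.05, adjusted p up to 0.057).

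Zm00001d049692 (MADS-box 26 match) had a mean of 11.3 FPKM in high jointing against 29.3 in low jointing. The means were 27.3 against 55.1 for the big flare libraries, and 12.2 against 31.4 for those of tasseling. The 2 low libraries of a stage differed widely (35.22 and 74.94 at big flare). The difference of -1.07 ± 0.30 (adjusted p = 0.041) was lost in 11 of 18 fits without 1 library, those without low jointing 1, low big flare 2, low tasseling 2, middle jointing 1 or 2 or any high library (-1.30 to -0.84, adjusted p up to 0.12).

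Zm00001d050897, an AGL17-like match to MADS27, was at 1.37 to 4.12 FPKM in low libraries (median 2.96) and at 0.24 to 0.63 in high libraries (0.435), and these groups did not overlap. The middle hybrid ran from 0 to 3.52 FPKM. The difference of -1.39 ± 0.40 (adjusted p = 0.047) was lost in 11 of 18 fits without 1 library, those without any high library or any low library but low big flare 1 (-1.58 to -1.21, adjusted p up to 0.12), and under median-of-ratios scaling (-1.34, adjusted p = 0.062), quantile normalization (-1.31, adjusted p = 0.072) and a pseudocount of 0.1 (-2.44, adjusted p = 0.12), and with no filter, a replicate block or relative depth in the model (adjusted p = 0.064, 0.053 and 0.094).

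Middle against low, 1 member differed, where 6.93% of all tested genes did (2.62% higher and 4.31% lower). The generic Zm00001d042550 averaged 0.333 ± 0.555 FPKM over middle libraries and 3.40 ± 3.05 over low libraries, with 5 of 6 middle libraries below all low ones (-1.58 ± 0.34, adjusted p = 0.013). High against middle, 1 member differed, where 4.44% did (2.37% higher and 2.07% lower). The MADS-box 57-like match Zm00001d017932 averaged 20.1 ± 12.6 FPKM over high libraries and 7.6 ± 4.67 over middle libraries, higher at each stage (1.27 ± 0.29, adjusted p = 0.027). The call was lost without middle jointing 1, middle big flare 1, middle tasseling 1 or any high library but high jointing 2 (1.01 to 1.53, adjusted p up to 0.08), when only the 12 libraries compared were used (adjusted p = 0.10) and with relative depth in the model (1.11, adjusted p = 0.057).

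**Figure D5:**
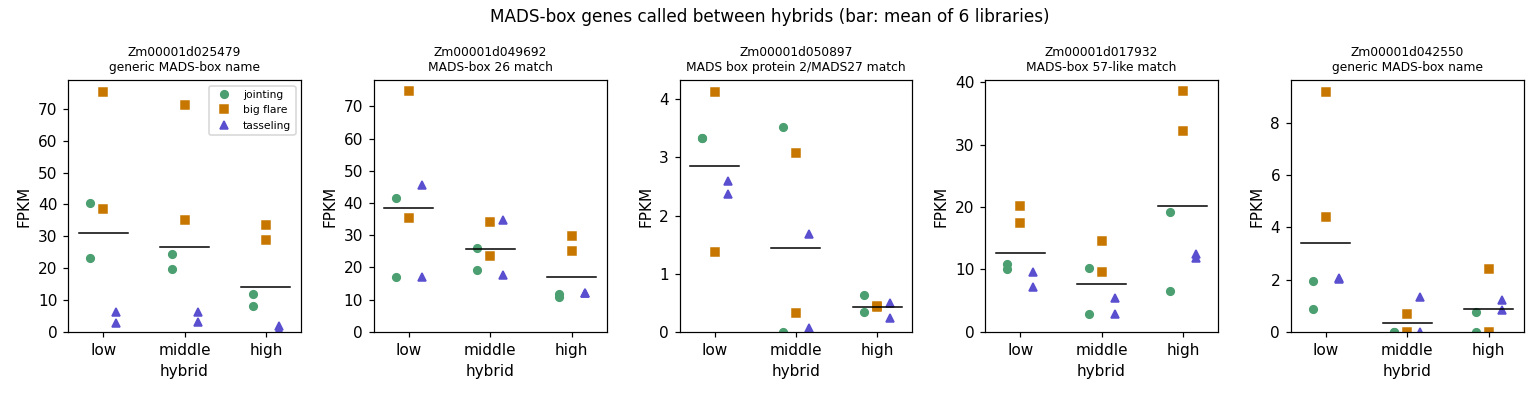
FPKM (vertical axis, from 0) of the 5 members that differed between hybrids, with 1 point per library marked by stage and a bar at the mean of the 6 libraries of a hybrid. For Zm00001d050897 the low libraries (1.37 to 4.12) lay above all high libraries (0.24 to 0.63).

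No member passed the hybrid-by-stage interaction in limma, where 0.056% of all tested genes did. An unadjusted p below 0.05 was found for 2 members, Zm00001d007891 (unadjusted p = 0.0031, adjusted p = 0.50) and m21. The share of all tested genes at that unadjusted threshold was not computed, so this count is no result about the members.

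The 26 members that were not tested peaked at 4.4 FPKM, a value of the B-class m18 in low big flare 1. Of all 55 members 20 never reached 1 FPKM. Among them were all 4 B-sister genes, which act in ovules (peaks of 0.29 to 0.8 FPKM), 4 of the 6 SEP-like genes, MADS6 and MADS7 included (0.16 to 0.89), and the MIKC-star match to AGL66, a gene of pollen in Arabidopsis (0.33). Of the 7 type I genes 5 were not tested (peaks of 0.21 to 1.48 FPKM). Another 6 genes bear names of MADS-box genes without the letters MADS and were not counted as members. Of these, the 5 named for floral organ genes (AGAMOUS homologs, bearded-ear 1 and silky 1) peaked at 1.15 FPKM, and m23 reached 71.1 FPKM with a median of 5.435.

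Other genes of the flowering pathways are given by list, and differences in share between the lists and the MADS-box genes were not tested. The same shares over all tested genes stand beside every list. At big flare 7.29% rose and 5.06% fell, at tasseling 22.4% rose and 19.2% fell, and 5.23% rose and then fell. The florigen family, mobile signals and their antagonists, had 10 of 15 genes tested, of which 3 rose and 0 fell at big flare, 2 rose and 3 fell at tasseling, and 3 did both in turn. ZCN3 went from 16.7 ± 17.0 to 52.5 ± 29.7 and then 10.7 ± 3.64 FPKM (log2 changes of 1.89 ± 0.53, adjusted p = 0.039, and -2.09 ± 0.53, adjusted p = 0.0076). ZCN14 went from 2.11 ± 2.33 to 12.1 ± 5.58 and 3.18 ± 3.93 FPKM (2.32 ± 0.43, adjusted p = 0.0062, and -2.05 ± 0.43, adjusted p = 0.0022). ZCN8, the leaf florigen of maize, was listed at 0 in 6 libraries, with a median of 0.375 and a peak of 21.5 FPKM.

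Of 21 tested flowering time genes (25 in all), 1 rose and 2 fell at big flare, and 4 rose and 6 fell at tasseling. The clock gene gigantea1A rose from 79.9 ± 15.1 to 120 ± 14.9 FPKM at big flare (0.59 ± 0.18, adjusted p = 0.047). CONSTANS-like CO6 fell from 113 ± 29.2 to 19.2 ± 16.3 FPKM at tasseling (-2.84 ± 0.38, adjusted p = 0.00014). Of 17 tested SBP-box genes (25 in all), some of which activate AP1/FUL-like genes in Arabidopsis, 1 rose and 2 fell at big flare and 5 rose and 4 fell at tasseling. Of 5 tested APETALA2-like genes (8 in all), 1 rose and 0 fell at big flare and 2 rose and 2 fell at tasseling, indeterminate spikelet 1 among the rises (7.35 ± 1.92 to 16.2 ± 4.92 FPKM, 1.02 ± 0.24, adjusted p = 0.0047).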

How the data were processed

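RNA of 18 maize stem libraries was enriched for poly-A RNA, made into libraries with a TruSeq V2 kit and sequenced as paired ends, per the labels' protocols. The authors deposited FPKM values per gene, 1 column per library, per the file headers. The submitters' processing notes name DESeq 1.28.0, Cuffdiff, Cufflinks 2.2.1, TopHat2 and the build B73 RefGen_v4, and give no role or order. For filters and strand, nothing is given in the sources used here. FPKM keeps no read counts, so no count test was run, and overlapping or near-identical genes can share reads.

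Members were chosen by the deposited match name. The members and the gene lists were chosen with earlier results of these data known. Subfamilies were set from match names and symbols, and 30 members matched a gene of the RefSeq table of Zm-B73-REFERENCE-NAM-5.0 by protein accession. Since the builds differ, no coordinates were used. From the partner and marker lists, 4 names of other kinds of genes were taken out.

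The model, fitted with limma 3.58.1 in R 4.3.3, had 9 group means of log2(FPKM + 1) with a pseudocount of 1, 9 residual degrees of freedom and variances moderated with a mean trend. Of 34474 genes, 26792 with 1 FPKM or more in at least 2 libraries were tested, and 7682 were not. Two-sided p-values were adjusted over all genes tested by the Benjamini-Hochberg method. The procedure was tested on simulated data. Relative depth came from ratios of low FPKM values between libraries, and 89.5% of 153 library pairs were fitted to within 0.05 on the log2 scale.

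Named were members past the threshold in both steps with opposite signs, those past it in 1 step with a stage mean of 10 FPKM or more, those with a mean of 10 FPKM or more, the 3 largest each way of each hybrid contrast, any past the interaction threshold, and m21. Members past the threshold that were named outside this rule are marked. Some others are named outside the rule without a mark, among them Zm00001d023736, MADS16, Zm00001d035053 and Zm00001d003409. These were not among the named values followed over the alternatives. Alternatives were 2 other scalings, a pseudocount of 0.1, no filter, a replicate block, the 12 libraries compared alone and each library left out, and 2 chosen after seeing the data, relative depth as a covariate and a fit without 2 libraries.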

Additional observations from a re-analysis of the deposited data

How the results depend on the processing

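Leaving out 1 library at a time moved the counts of members called to 7 to 15 at big flare against jointing (14 with all libraries), 11 to 15 at tasseling against big flare (14), 12 to 15 at tasseling against jointing (13), 0 to 3 for high against low (3), 1 to 2 for middle against low (1), 0 to 2 for high against middle (1) and 0 to 0 for the interaction. The lone library of a group was then assumed to vary like the other groups. Members that rose and then fell numbered 3 to 7 (7), those that rose in both steps 1 to 3 (3), and those that fell in both 1 to 1. The count of members that rose in both steps was 1 without any tasseling library but high tasseling 2, and without low big flare 2, middle jointing 2, middle big flare 1, either high jointing or either high big flare library. High against low gave 0 when either low tasseling 2 or low big flare 2 was absent, and 1 without low jointing 1 or any high library but high big flare 2. High against middle gave 0 without middle jointing 1, middle tasseling 1, high jointing 1, either high big flare library or high tasseling 1, and 2 without middle big flare 2, and middle against low gave 2 without low jointing 2 or middle jointing 2. With both low big flare 1 and high jointing 2 left out (chosen after seeing the data), 9 members were called at big flare, 4 rose and then fell, 1 rose in both steps and 1 differed for high against low. With no filter 1 member differed for high against low, and with the 12 libraries compared 0 differed for high against middle. The cause was not tested.

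Of the 7 members that rose and then fell, 3 (MADS69, m21 and Zm00001d052180) kept both calls in all 26 alternatives. Of the 3 that rose in both steps, 0 did. Zm00001d002332 changed sign at big flare without low jointing 1 (0.08), middle jointing 2 (0.00), middle big flare 2 (0.15) or high big flare 1 (0.04), over a range of -0.18 to 0.15, and at tasseling without middle big flare 1 (0.06), over a range of -0.27 to 0.06. Zm00001d034045 came to 0.00 at tasseling against big flare with relative depth as a covariate.

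The replicate numbers are shared between groups, and the labels do not say whether they pair the samples. Over 36 pairs of groups the correlation of the deviations of same-numbered libraries ran from -0.43 to 0.293, with a median of -0.007. It was over 0.1 in 8 pairs. With the replicate block, 13 members were called at big flare, 13 at tasseling against big flare and 2 for high against low, and the calls lost were those of Zm00001d003408, Zm00001d027955 and Zm00001d050897 (adjusted p = 0.06, 0.054 and 0.053). Absolute depth is unknown, and low values are the least precise in the shallower jointing and big flare libraries.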
